A study of Homo sapiens with 3 samples.

Results

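The urokinase and plasminogen activation system was described in UM-UC-3, a human bladder cancer cell line, after knockdown of NONO, an RNA-binding protein of the nucleus that takes part in transcription and splicing. The members were 9 genes chosen by name with earlier results of these libraries known, and taken where they stood in the table of every library. Of the 9, 8 were in all 3 tables, out of 21308 genes common to them, and 7 of the 8 were among the 13922 genes with a value of 1 CPM, the read count scaled to a common library total, or more in any library. The members were selected on the same contrast that is described here, so their values are given as a description and without a test. The groups were NONO siRNA, with 1 library from cells given siRNA 1 and 1 library from cells given siRNA 2, and control siRNA, with 1 library from cells given a negative control siRNA. Each siRNA was used at 75 nM, the design text gives 48 h, and the RNA was sequenced as 100 bp read pairs. All libraries share the cell line, the transfection reagent Lipofectamine RNAimax and the culture medium, and nothing in the labels says whether they came from separate cultures. Both NONO siRNA comparisons share the single control library, and the only spread between libraries of a group is that between different siRNAs.

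Urokinase, made by PLAU, and tissue plasminogen activator, made by PLAT, are serine proteases that cut the blood protein plasminogen into plasmin, a protease that dissolves fibrin and opens extracellular matrix. Urokinase acts at the cell surface on its receptor, made by PLAUR, while plasminogen docks on surface receptors such as the annexin A2 and S100A10 complex and PLGRKT. Serpins, among them protease nexin 1 made by SERPINE2 and plasminogen activator inhibitor 2 made by SERPINB2, block the activators. Urokinase and its receptor are known for their part in cell migration and invasion in many carcinomas, bladder cancer included.

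The NONO transcript itself was counted at 79.5 CPM with NONO siRNA 1 and 104 CPM with NONO siRNA 2, against 823 CPM with control siRNA. That is 9.66% and 12.6% of the control level, so both libraries labelled as knockdowns showed the label. The tables imply 29408573 reads for NONO siRNA 1, 28594569 for NONO siRNA 2 and 27681990 for control. Of 14 urothelial and epithelial markers, 8 were listed in all 3 tables, led by KRT18 and KRT8 with 111 and 77.1 CPM in control, while KRT5, KRT20, EPCAM, CDH1, UPK1B and UPK3A were not. VIM, a mesenchymal filament, stood at 947 and 960 CPM with NONO siRNA 1 and 2 and at 1380 CPM with control siRNA, and CDH2, a mesenchymal cadherin, at 70.0 and 80.8 CPM with the siRNAs and 54.6 CPM with control. Markers of other cell types were at or near 0, with summed levels of at most 0.525 CPM for 1 of 5 leukocyte markers, 1.88 CPM for 2 of 4 endothelial markers and 3.68 CPM for 2 of 4 fibroblast markers.

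The siRNAs are shown because their seeds, the bases 2 to 8 of a guide strand, help decide which other transcripts they can bind. The labelled strand of each is given 5′ to 3′, and the capitals mark its bases 12 to 18, which read like the mRNA site that the seed of the complementary strand pairs with.
NONO siRNA 1: ggcgaagucuuCAUUCAUatt
NONO siRNA 2: gcaucccuuacAGUUCGAatt
Control siRNA: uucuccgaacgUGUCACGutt
NONO siRNA 1 matched exon 4 of 12 of the transcript NONO-201 at chrX:71291925-71291943, and NONO siRNA 2 matched exon 5 at chrX:71294320-71294338, both on the plus strand of GRCh38 and within the coding sequence. The control siRNA had no match in that transcript. None of the 7-base sites of the 6 strands occurred in the transcripts searched for PLAU, PLAUR, PLAT, SERPINE2, ANXA2, S100A10 and PLGRKT. SERPINB2 held 1 site each for the complementary strand of siRNA 1, the labelled strand of siRNA 2 and the labelled strand of the control, all outside its 3′ UTR. Among 11503 tested protein-coding genes searched in the same way, 22.9% held the site of the complementary strand of siRNA 1, 10.9% that of siRNA 2 and 7.19% that of the control. For the labelled strands the shares were 6.29% for siRNA 1, 24.4% for siRNA 2 and 11.6% for the control. No match says only that these letters were not in the transcript searched.

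The promoters of 4 members are printed for the motifs near the starts of the genes at which plasmin is made and bound. The windows come from RefSeq on GRCh38.p14 and run from 250 bases before to 50 bases after the start, 5′ to 3′ along the gene. PLAU has 2 such windows, and the downstream one, chr10:73910882-73911181 on the plus strand, is printed. The PLAUR window is chr19:43670120-43670419, that of ANXA2 is chr15:60397937-60398236, and that of S100A10 is chr1:151993810-151994109, all on the minus strand. Capitals mark matches on either strand to AP-1 (TGANTCA), the GC box (GGGCGG) and the TATA box (TATAAA). The letters CCGGAAG for ETS factors, TGACGTCA for the cyclic AMP response element and the NF-kB motif were searched as well and had no match in the printed windows.
PLAU promoter: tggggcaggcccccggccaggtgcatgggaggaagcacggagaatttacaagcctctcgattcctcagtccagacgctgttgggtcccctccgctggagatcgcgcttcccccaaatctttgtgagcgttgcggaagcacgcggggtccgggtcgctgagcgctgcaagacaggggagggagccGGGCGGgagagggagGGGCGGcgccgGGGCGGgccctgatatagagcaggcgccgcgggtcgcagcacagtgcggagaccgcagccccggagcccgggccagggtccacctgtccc
PLAUR promoter: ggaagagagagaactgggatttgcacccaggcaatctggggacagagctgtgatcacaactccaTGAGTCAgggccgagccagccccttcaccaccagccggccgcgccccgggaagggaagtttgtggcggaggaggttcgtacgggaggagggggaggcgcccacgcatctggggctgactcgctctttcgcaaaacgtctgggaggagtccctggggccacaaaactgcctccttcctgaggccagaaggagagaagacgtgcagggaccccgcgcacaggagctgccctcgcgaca
ANXA2 promoter: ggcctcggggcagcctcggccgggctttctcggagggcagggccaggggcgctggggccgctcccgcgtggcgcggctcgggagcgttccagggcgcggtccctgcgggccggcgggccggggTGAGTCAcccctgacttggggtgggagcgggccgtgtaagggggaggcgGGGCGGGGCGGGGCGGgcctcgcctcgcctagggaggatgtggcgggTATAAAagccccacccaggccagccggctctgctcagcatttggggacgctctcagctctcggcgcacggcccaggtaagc
S100A10 promoter: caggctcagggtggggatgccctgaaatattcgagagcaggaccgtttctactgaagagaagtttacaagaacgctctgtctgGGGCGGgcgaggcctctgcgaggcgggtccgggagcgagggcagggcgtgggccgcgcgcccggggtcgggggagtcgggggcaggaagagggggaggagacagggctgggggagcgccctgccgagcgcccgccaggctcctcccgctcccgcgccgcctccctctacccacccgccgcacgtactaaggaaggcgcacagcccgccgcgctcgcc
The printed PLAU window held 3 GC boxes that begin at -66, -51 and -40 from the start, and no AP-1 letters. PLAUR held a single AP-1 match at -186 and no GC box. ANXA2 held an AP-1 match at -127, a run of 3 GC boxes from -78 that overlap by single bases, and a TATA box at -31. S100A10 held 1 GC box at -167. The other PLAU window, chr10:73910360-73910659, had none of the motifs. Of the remaining members on the map of motif matches, SERPINB2 had an AP-1 match at -102 and a TATA box at -30, PLGRKT an ETS match at -72 and a GC box at 43, and SERPINE2 only GC boxes. Among 35116 RefSeq windows of this length, 7.71% held AP-1, 45.0% the GC box, 11.5% the TATA box, 10.3% ETS, 1.85% the cyclic AMP response element and 11.3% the NF-kB motif. These matches describe letters and not binding, which was not measured.

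**Figure D1:**
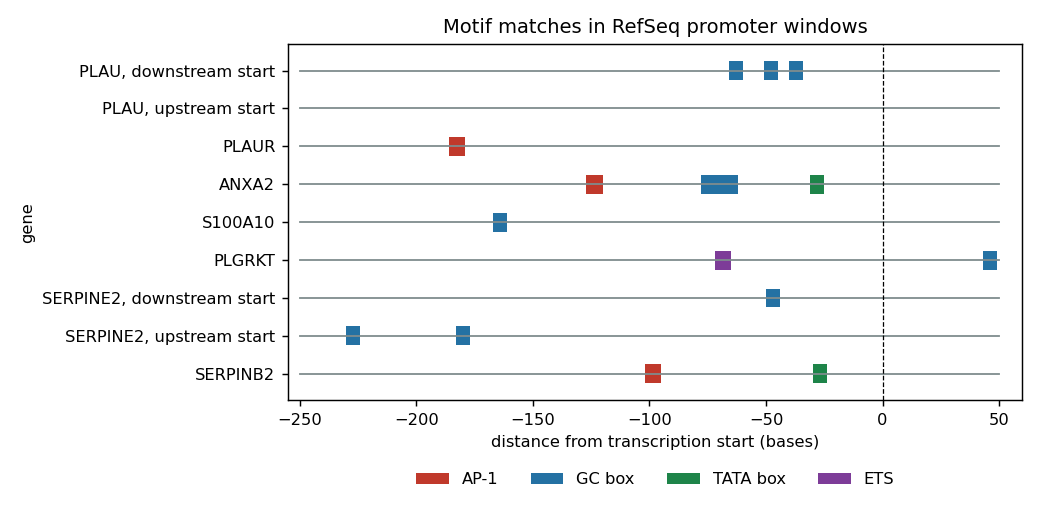
Motif matches (coloured blocks, drawn to scale) in RefSeq promoter windows of members, with distance from the transcription start in bases on the horizontal axis and 1 line per window. AP-1 blocks stand in PLAUR, ANXA2 and SERPINB2, and the downstream PLAU window has 3 GC boxes between -66 and the start.

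PLAU, the urokinase gene (ENSG00000122861, chr10:73909177-73917497, plus strand), was far lower with both NONO siRNAs. Values per kilobase of exon here divide by all exon bases of a gene, merged over its annotated transcripts. By that length PLAU led the members in control cells, an order that depends on the length used. It was counted at 500 CPM with NONO siRNA 1 (95% Poisson interval 492 to 508), 782 CPM with NONO siRNA 2 (772 to 792) and 1635 CPM with control siRNA (1620 to 1650). Both knockdown libraries were below the control library and siRNA 1 was the lowest, with no overlap of the counting intervals. These intervals cover counting error only, since reads are not independent molecules, and say nothing of the spread between cultures. The levels with siRNA 1 and siRNA 2 were 30.6% and 47.8% of control, or log2 folds of -1.71 and -1.06 on the scale of log2(CPM + 1) that is used for all folds here. PLAU took 0.05001% of all reads with siRNA 1 and 0.0782% with siRNA 2, against 0.163% in control. In RNA of a whole culture, fewer cells that make a transcript and less of it per cell cannot be told apart. The gene C10orf55 lies on the opposite strand and shares 916 of the 2950 exon bases of PLAU, and the strand setting of the counting is not given, so the PLAU count is uncertain to that extent. C10orf55 was counted at 1.36 CPM with NONO siRNA 1, 1.61 CPM with NONO siRNA 2 and 1.59 CPM with control.

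PLAT, which makes the activator that cuts plasminogen mainly on fibrin (ENSG00000104368, chr8:42175233-42207724, minus strand), was a minor transcript. It had 1.33 CPM from 39 reads with NONO siRNA 1, 3.85 CPM from 110 reads with NONO siRNA 2 and 5.89 CPM from 163 reads with control siRNA. The control library was again the highest and siRNA 1 the lowest. Its level was 22.5% of control with siRNA 1 (95% counting interval 15.5% to 32.1%) and 65.3% with siRNA 2 (50.8% to 83.7%), and the log2 folds were -1.57 and -0.51. Per kilobase of exon, PLAU exceeded PLAT 846-fold with siRNA 1 (619 to 1190), 456-fold with siRNA 2 (378 to 555) and 623-fold in control (534 to 731). The size of these ratios depends on the exon lengths used, which the intervals leave out. Urokinase RNA was by far the more abundant activator transcript in each library.

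PLAUR, the gene of the urokinase receptor, a glycolipid-anchored protein of the cell surface (ENSG00000011422, chr19:43646095-43670547, minus strand), had the same order of libraries as PLAU. It was counted at 111 CPM with NONO siRNA 1 (108 to 115), 191 CPM with NONO siRNA 2 (186 to 196) and 288 CPM with control siRNA (281 to 294). The intervals did not overlap, and the siRNA 2 library lay nearer to control than the siRNA 1 library did on the log scale. The levels with siRNA 1 and siRNA 2 were 38.7% and 66.4% of control, and the log2 folds -1.36 and -0.59. The activator stood lower against its receptor in the knockdown libraries than in control. Per kilobase of exon, PLAU over PLAUR was 6.78 with siRNA 1 (6.53 to 7.05) and 6.18 with siRNA 2 (6.002 to 6.37), against 8.59 in control (8.38 to 8.80). The exon lengths used set the size of this ratio and are left out of its intervals, but they do not change the order of the libraries.

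**Figure D2:**
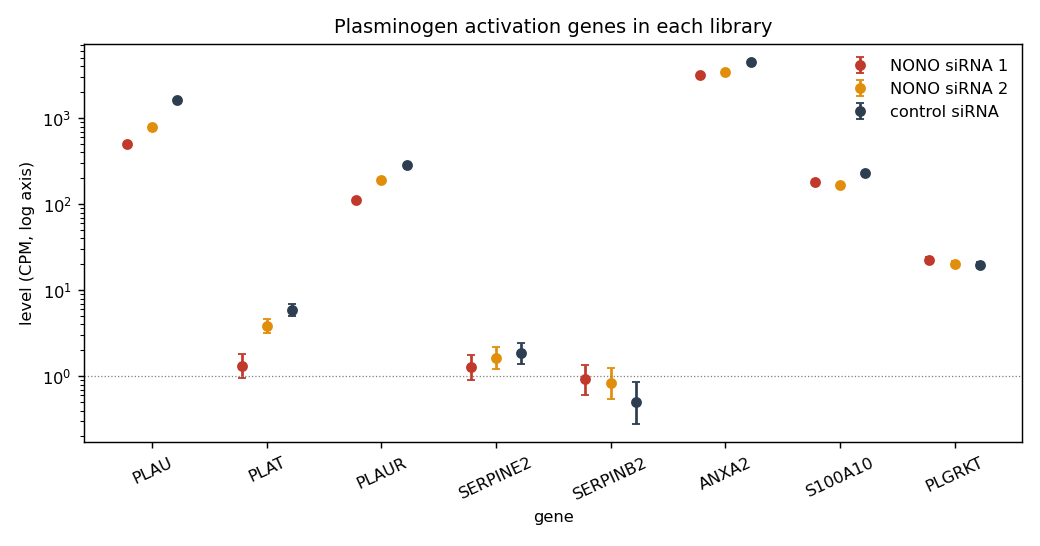
Level of 8 members in each library in CPM on a log axis, with NONO siRNA 1 (red), NONO siRNA 2 (orange) and control siRNA (dark) from left to right and 95% Poisson intervals as bars, many smaller than the points. PLAU, PLAT and PLAUR step up in that order, while PLGRKT stays between 19.5 and 22.5 CPM; the dotted line marks 1 CPM.

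The inhibitors among the members were near the limit of these libraries. SERPINE2, a serpin that blocks urokinase and thrombin (ENSG00000135919, chr2:223975112-224039319, minus strand), had 1.29 CPM with NONO siRNA 1, 1.64 CPM with NONO siRNA 2 and 1.88 CPM with control, from 38, 47 and 52 reads. Its level was 68.8% of control with siRNA 1 (44.0% to 107%) and 87.5% with siRNA 2 (57.7% to 132%), so no difference was detectable at this depth. SERPINB2, the serpin that blocks urokinase and is largely kept inside cells (ENSG00000197632, chr18:63871692-63903890, plus strand), had 0.918 CPM with NONO siRNA 1, 0.839 CPM with NONO siRNA 2 and 0.506 CPM with control, from 27, 24 and 14 reads. Both knockdown libraries were above control, but the ratios to control of 182% (91.9% to 375%) and 166% (82.4% to 347%) had counting intervals that hold equality. SERPINB2 stayed below 1 CPM in every library and was not among the genes tested. It also shares 547 exon bases with SERPINB10.

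Plasminogen itself, the gene PLG (ENSG00000122194), was in none of the tables and was not analysed here. Its usual source is the liver, and none of 5 hepatocyte markers was listed. Per kilobase of merged exons, its receptors ANXA2 and S100A10 ranked 49 and 190 among 13886 genes in control, and PLGRKT ranked 3370. These ranks depend on the length used.

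ANXA2, a calcium-dependent membrane-binding protein (ENSG00000182718, chr15:60347134-60402883, minus strand), was counted at 3184 CPM with NONO siRNA 1, 3416 CPM with NONO siRNA 2 and 4461 CPM with control siRNA. Both knockdown libraries lay below control and close to each other. The log2 folds were -0.49 and -0.38, or 71.4% and 76.6% of control. The intronless copy ANXA2P2 was counted at 166, 184 and 246 CPM in the siRNA 1, siRNA 2 and control libraries, which was 5.22%, 5.38% and 5.52% of the ANXA2 reads, and how the counting shared reads between both is not known. S100A10, which holds the carboxyl-terminal lysine that plasminogen binds (ENSG00000197747, chr1:151982915-151994390, minus strand), had 183 CPM with NONO siRNA 1, 167 CPM with NONO siRNA 2 and 232 CPM with control. Here siRNA 2 was the lowest library, with log2 folds of -0.34 for siRNA 1 and -0.48 for siRNA 2. The ratio of S100A10 to ANXA2 per kilobase of exon was 0.329 with siRNA 1 (0.320 to 0.338) and 0.279 with siRNA 2 (0.271 to 0.287). Control had 0.298 (0.291 to 0.306), so the knockdown libraries lay on either side of control. The size of this ratio depends on the exon lengths used, which its intervals leave out, while the order of the libraries does not. PLGRKT, a plasminogen receptor that spans the membrane (ENSG00000107020, chr9:5357973-5437878, minus strand), was the only tested member above control with both siRNAs, as 37.8% of all genes were. It had 22.5 CPM with NONO siRNA 1 (20.8 to 24.3), 20.3 CPM with NONO siRNA 2 (18.7 to 22.0) and 19.5 CPM with control (17.9 to 21.3). Its level was 115% of control with siRNA 1 (103% to 129%), a counting interval that leaves out equality, and 104% with siRNA 2 (92.2% to 117%), and the log2 folds were 0.19 and 0.05.

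Read per kilobase of merged exons, the system in control cells was led by PLAU with 554 CPM per kilobase and ANXA2 with 506. S100A10 followed with 151 and PLAUR with 64.5. The merged exons have 8824 bases in ANXA2 and 2950 in PLAU, while the single transcripts searched for seeds have 1676 and 2321. The order of the members therefore depends on the length used, and which transcripts the cells make was not tested. PLGRKT had 13.1 CPM per kilobase, PLAT 0.890 and SERPINE2 0.211. With these values PLAU ranked 43 and ANXA2 49 among 13886 genes with a length, PLAUR ranked 543, and PLAT 11355. In both knockdown libraries ANXA2 stood above PLAU, with 361 against 170 CPM per kilobase with siRNA 1 and 387 against 265 with siRNA 2. By CPM without a length, ANXA2 stood above PLAU in every library, with 4461 against 1635 CPM in control. The members took 0.4004% of the reads with siRNA 1 and 0.458% with siRNA 2, against 0.664% in control.

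Counted by size, 3 of 7 tested members (PLAU, PLAUR and PLAT) stood below control by 2-fold or more in the siRNA 1 library, where 2.72% of all tested genes did. With siRNA 2 this held for 1 of 7, PLAU, beside 1.43% of all genes, and PLAU alone was at least 2-fold lower with both, beside 0.668%. Of the 7, 6 were lower with both siRNAs by any size, which 34.5% of all genes were, and 1, PLGRKT, was higher with both, as were 37.8% of all genes. The median log2 fold of the tested members was -0.49 with siRNA 1 and -0.48 with siRNA 2, against 0.03 and 0.01 over all genes tested. limma, fitted over all genes with an adjusted p under 0.05, called 11 genes lower (0.0790%) and 19 higher (0.136%) and no member, while 4 members (ANXA2, PLAT, PLAU and PLAUR) had an unadjusted p under 0.05, as did 1588 of the 13922 genes (11.4%). On the reads recovered from the CPM, edgeR called 0.413% of 16963 genes lower and DESeq2 0.508% of 11806, and PLAU was the member that each called lower. As the members were chosen on this contrast, nothing is read from these counts.

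**Figure D3:**
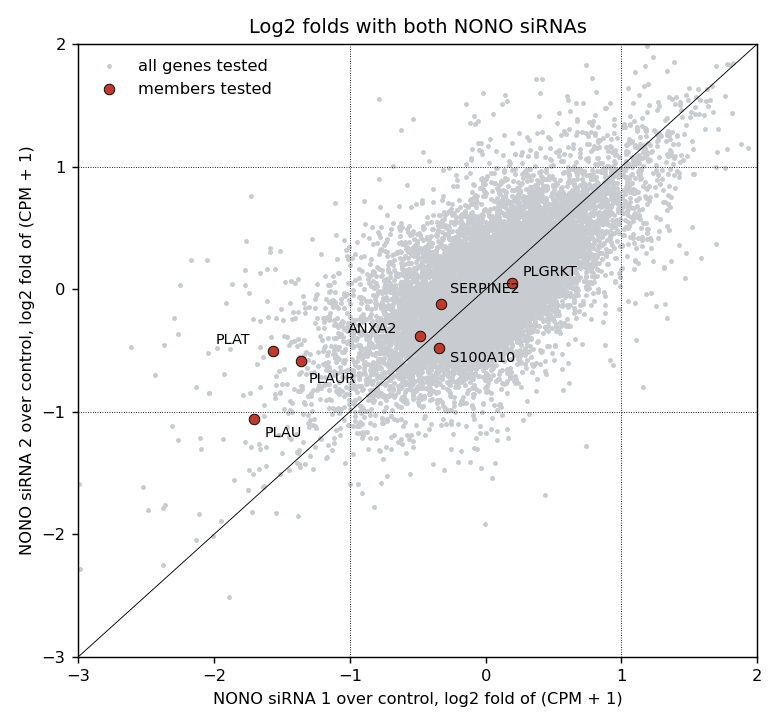
Log2 fold of (CPM + 1) over control with NONO siRNA 1 (horizontal) and NONO siRNA 2 (vertical) for all 13922 tested genes (grey, 17 outside the axes) and 7 members (red), with the line of equal folds and dotted lines at 2-fold. Both axes share the control library; PLAU, PLAUR and PLAT lie left of and above the line of equal folds, and PLGRKT lies near 0 on both axes.

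The siRNAs differed from each other in the activators and the receptor. PLAU with siRNA 1 was 64.0% of its level with siRNA 2 (62.6% to 65.3%), PLAUR 58.3% (55.8% to 60.9%) and PLAT 34.5% (23.3% to 50.1%). The plasminogen receptors lay closer, with ANXA2 at 93.2%, S100A10 at 110% and PLGRKT at 111%. PLAT was the only tested member with a difference of at least 2-fold between the siRNAs, lower with siRNA 1, as were 1.47% of all genes, and 0 of 7 members were at least 2-fold higher with siRNA 1, as were 0.575%. Both siRNAs had 1 library each, so these differences have no replicate check. The summed level of the epithelial markers had the same order of libraries, with 95.8 CPM with siRNA 1, 182 CPM with siRNA 2 and 193 CPM with control. The mesenchymal sum had that order too, at 1017, 1041 and 1434 CPM in the libraries of siRNA 1, siRNA 2 and control. So did the low endothelial and fibroblast sums, but not the leukocyte sum. Of the epithelial markers, KRT18 followed the order with 49.0, 93.3 and 111 CPM in these libraries, while KRT8 had 43.0, 85.4 and 77.1 CPM. KRT19, GATA3 and UPK1A did not follow it either, while KRT7 and TP63 did, at 1.66 CPM or less in each library. UPK2 had 1, 1 and 5 reads with siRNA 1, siRNA 2 and control. The part of these markers in the result was not tested.

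The transcripts of the members were shorter than most. The GENCODE 29 transcripts searched had 932 to 2706 bases, against a median of 3329 over the 11503 genes, and 3′ UTRs of 248 bases in S100A10 to 932 bases in PLAU, against a median of 1179. The letters ATTTA, a core of AU-rich elements that govern mRNA decay, occurred 2 times in the 3′ UTR of PLAU, once in that of PLAUR and 2 times in that of PLAT. SERPINB2 held 4 and S100A10 held 0, beside a median of 2 over all genes searched, of which 72.2% held at least 1. ANXA2 and SERPINE2 also held 2 each, and PLGRKT held 1. The counts were not scaled to the length of the 3′ UTR, and a link between them and the folds was not tested.

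Other genes around the system were taken from 5 lists drawn up with earlier results of these data known. limma called 0 genes in each list, lower or higher. The count at an unadjusted p under 0.05 is given for each list, to be read against the 11.4% of all tested genes, with the calls of edgeR and DESeq2.

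Of 17 further inhibitors of serine proteases, 9 were in all tables and 5 were tested. Among these 5, 2 were lower and 1 higher with both siRNAs, with a median log2 fold of -0.68 for siRNA 1 and 0.03 for siRNA 2. SERPINB6, an inhibitor of proteases inside cells, had 107 and 151 CPM with NONO siRNA 1 and 2 and 60.003 CPM with control. TFPI2, a secreted inhibitor that also blocks plasmin, had 10.6 and 16.9 CPM with NONO siRNA 1 and 2 and 17.5 CPM with control. The unadjusted count was 2 of 5 (SERPINB6 and SERPIND1), beside 11.4% of all genes, edgeR called SERPIND1 lower, and DESeq2 called none. SERPIND1, which makes heparin cofactor II, had 0.408 and 0.769 CPM with NONO siRNA 1 and 2 and 3.03 CPM with control. It reached 1 CPM in control only, so limma could test it only as a gene lower with both siRNAs.

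Of 23 receptors and partners of urokinase, its receptor and plasminogen, 19 were tested, with 8 lower and 5 higher with both siRNAs. The median log2 fold was -0.32 for siRNA 1 and 0.04 for siRNA 2. The unadjusted count was 3 of 19 (ITGA3, ITGA5 and ITGB1), near the 11.4% of all genes, and edgeR and DESeq2 called 0. The integrin subunits differed in direction. ITGA5, a subunit of the fibronectin receptor, had 220 and 246 CPM with NONO siRNA 1 and 2 and 391 CPM with control, whereas its partner ITGB1 had 2982 and 2823 CPM with the siRNAs and 2127 CPM with control. ITGA3, a laminin-binding subunit that also binds the urokinase receptor, had 895 and 1080 CPM with the siRNAs and 1358 CPM with control. LRP1, which takes up complexes of urokinase and its inhibitors from the surface, had 50.2 and 63.3 CPM with the siRNAs and 77.1 CPM with control. ITGAM, 1 of the 8 lower with both, had 0.680 and 0.245 CPM with the siRNAs and 1.30 CPM with control. It reached 1 CPM in control only, so it could be tested only as a gene lower with both.

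Of 20 proteases and receptors around pro-urokinase and plasmin, 10 were tested, with 5 lower and 3 higher with both siRNAs and median log2 folds of -0.04 and -0.11. The unadjusted count was 3 of 10 (CTSB, F12 and PROCR), beside 11.4% of all genes, and edgeR and DESeq2 called 0. CTSB, a cathepsin that can activate pro-urokinase, had 785 and 947 CPM with NONO siRNA 1 and 2 and 620 CPM with control. PROCR, the receptor of protein C, had 18.7 and 17.03 CPM with the siRNAs and 29.3 CPM with control. F12 was low, at 2.86 and 1.71 CPM with the siRNAs and 4.88 CPM with control. F2RL1, a receptor opened by trypsin-like proteases, had 69.3 and 81.1 CPM with the siRNAs and 108 CPM with control, and F3, the tissue factor gene, had 6.09 and 6.09 CPM with the siRNAs and 5.17 CPM with control.

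All 18 factors of transcription and mRNA stability known to act on urokinase were tested. Of these, 10 were lower and 4 higher with both siRNAs, and the median log2 folds were -0.22 and -0.19. JUNB, a subunit of AP-1, had the largest fold of the genes named from this list, with 16.1 CPM with NONO siRNA 1, 13.01 CPM with NONO siRNA 2 and 48.8 CPM with control. Its log2 folds were -1.54 and -1.83, with an adjusted p of 0.0577 by limma, 0.00672 by edgeR and 0.000257 by DESeq2. FOSL1, another AP-1 subunit, had 578 and 528 CPM with the siRNAs and 773 CPM with control, and it was the other gene with an unadjusted p under 0.05. That count of 2 of 18 is close to the 11.4% of all genes. The AP-1 subunits differed in direction. JUN had 567 and 541 CPM with the siRNAs and 503 CPM with control, and FOS had 5.64 and 2.59 against 2.35 CPM. JUND and FOSB were above control with siRNA 1 only, and FOSL2 was below it with both. ZFP36, which promotes the decay of AU-rich mRNAs, had 21.5 and 19.8 CPM with the siRNAs and 28.6 CPM with control. RELA, a subunit of NF-kB, had 133 and 127 CPM with the siRNAs and 175 CPM with control. In JUNB, FOSL1, ZFP36 and RELA, which were picked by size, siRNA 2 was the lowest library, unlike in PLAU and PLAUR. ETS1, NFKB1 and ELAVL1 also had siRNA 2 as the lowest library and control as the highest. Of the 10 factors lower with both siRNAs, only SP1, ETV4 and FOSL2 had siRNA 1 as the lowest library, as in PLAU and PLAUR. A link of any of these factors to PLAU was not tested.

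Of 24 annexin and S100 paralogs of ANXA2 and S100A10, 13 were tested, with 8 lower and 4 higher with both siRNAs and median log2 folds of -0.27 and -0.10. The unadjusted count was 3 of 13 (ANXA1, ANXA4 and S100A3), beside 11.4% of all genes, and edgeR and DESeq2 called 0. S100A3 had 0.136 and 0.280 CPM with the siRNAs and 1.23 CPM with control. It reached 1 CPM in control only, so it could be tested only as a gene lower with both siRNAs. ANXA1, an annexin known for its role in inflammation, had 519 and 624 CPM with NONO siRNA 1 and 2 and 353 CPM with control. ANXA4 had 24.9 and 24.4 CPM with the siRNAs and 12.8 CPM with control. Both stood on the other side of control from ANXA2. S100A11, a partner of ANXA1, had 228 and 226 CPM with the siRNAs and 279 CPM with control, and S100A6 had 7.82 and 8.64 CPM with the siRNAs and 11.9 CPM with control.

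**Figure D4:**
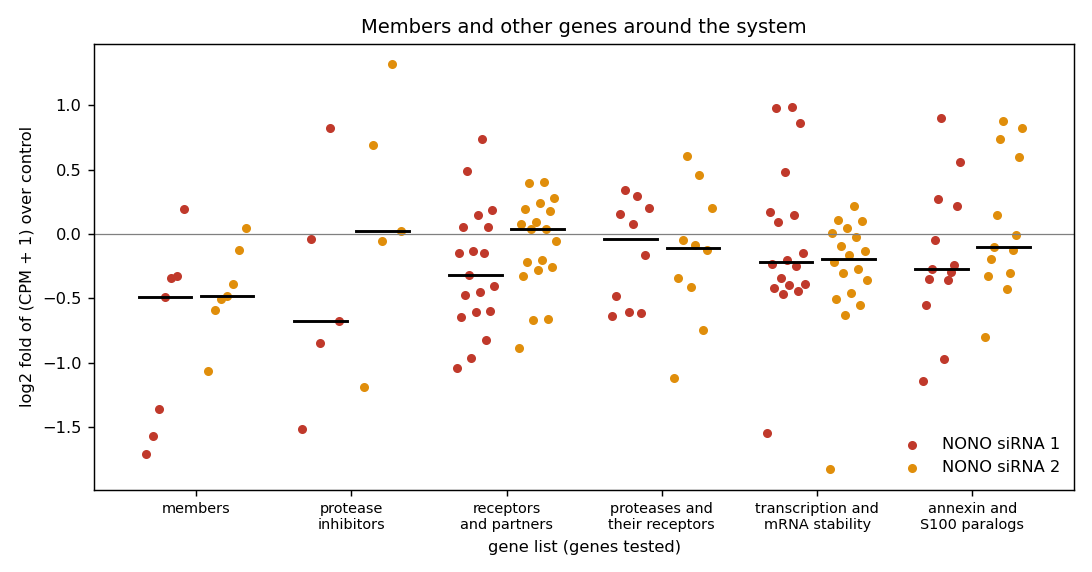
Log2 fold of (CPM + 1) over control of the tested members and the tested genes of 5 lists, with NONO siRNA 1 (red) left of NONO siRNA 2 (orange), 1 point per gene and a black bar at the median. The member medians are -0.49 and -0.48, and each list spans genes on both sides of 0.

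The genes nearest to PLAU in both log2 folds were sought among 4479 other genes with a mean of at least 50 CPM, by the distance in the plane of the 2 folds. They were SH2B3 at 0.077, CDKN1A at 0.22, CCND1 at 0.24, EHD1 at 0.25 and TTYH3 at 0.26 log2 units. SH2B3 had 132 CPM with NONO siRNA 1, 201 CPM with NONO siRNA 2 and 413 CPM with control. CDKN1A, an inhibitor of cyclin-dependent kinases, had 165, 208 and 477 CPM in the libraries of siRNA 1, siRNA 2 and control. The genes nearest to PLAUR were HEBP1 at 0.030, TMEM158 at 0.088, NIPA1 at 0.14, COG5 at 0.14 and HBEGF at 0.15 log2 units. HEBP1 had 35.3 CPM with siRNA 1, 62.1 CPM with siRNA 2 and 92.0 CPM with control. HBEGF, a growth factor that binds the EGF receptor, had 35.0, 58.5 and 83.8 CPM in the same libraries. The likeness rests on 3 libraries.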

How the data were processed

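RNA from 3 libraries was measured, 2 with different NONO siRNAs and 1 with control siRNA. The authors deposited 1 table of CPM per library, which are read counts scaled to a common total without length correction. The submitters' processing notes name HTSeq 0.6.1, HISAT2 2.1.0 and bcl2fastq 2.19.1 as tools, and GRCh37 and hg19 as builds, without roles. Strand setting and annotation release, not given in the sources used here, are unknown. Of the values, 99.3% in the siRNA 1, 99.5% in the siRNA 2 and 99.3% in the control table were whole multiples, within 0.01 reads, of 1 read's CPM; the others sit at 0.5 read and were taken as 0 reads.

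Symbols were found for 21049 of 21308 identifiers. Gene coordinates and exon lengths come from GENCODE 29 on GRCh38, which is not the build named by the submitters, and promoters from RefSeq on GRCh38.p14. Genes that reached 1 CPM in any library were fitted with limma 3.58.1 (trend, R 4.3.3) on log2(CPM + 1), which left 13922 genes, 1 residual and 7.68 prior degrees of freedom; p-values were two-sided and adjusted by the Benjamini-Hochberg method. They rest on the spread between different siRNAs, with the lone control assumed to vary alike. A gene that reached 1 CPM in control alone passed the filter only by being lower with both siRNAs. edgeR 4.0.16 (86 genes called higher and 70 lower) and DESeq2 1.42.0 ran on recovered reads. The limma code was also run on simulated data with 1 dispersion for all genes and true replicates. The real libraries come from different siRNAs, so that run does not bear on the calls made here. Ratio intervals treat counts as Poisson.

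The members and lists were chosen with earlier results of these data known, and the members do not cover every gene of the system. Named were NONO, the members, any gene of a list that limma called and the 5 genes nearest PLAU and PLAUR. Up to 4 more were named per list, with at least 5 CPM on average and the same sign with both siRNAs, by the smaller absolute fold. SERPIND1, ITGAM, F12, S100A3, SP1, ETS1, ETV4, NFKB1, ELAVL1, JUN, JUND, FOS, FOSB, FOSL2 and the marker genes are given besides. For each gene, 1 transcript was searched for seeds.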

Additional observations from a re-analysis of the deposited data

How the results depend on the processing

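No sign of a mean log2 fold or of a ratio between siRNAs changed for any of the 8 members under other scalings or pseudocounts or with 1 siRNA left out (0 of 80 values). Only the other scalings could have changed a sign. A pseudocount keeps the order of the libraries, and each member had the same sign with both siRNAs, so the rest of these values could not. The mean log2 fold of PLAU was -1.06 without siRNA 1 and -1.71 without siRNA 2, and that of PLAUR -0.59 and -1.36, so siRNA 1 contributed more to both. A pseudocount of 5 CPM left 2 members at least 2-fold lower with siRNA 1, against 3, and put the log2 ratio of siRNA 1 to siRNA 2 of PLAT at -0.48, against -1.06. The mean log2 fold of SERPINB2 was 0.69 with a pseudocount of 0.1 CPM and 0.09 with 5 CPM, against 0.32.

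Counts over all genes depended on the settings. limma called 19 genes higher and 11 lower. These counts were 2 and 3 with TMM scaling, 2 and 3 with upper-quartile scaling, 0 and 0 without the filter, 2 and 3 when a mean of 5 CPM was required, and 0 and 3 without a trend. A pseudocount of 5 CPM gave 28 and 27. edgeR called 86 and 70, and DESeq2 138 and 60. edgeR called 1 inhibitor and 1 factor of transcription or mRNA stability, and DESeq2 1 of the second list. The cause was not tested. No paired analysis was possible because there is 1 control library, and leaving out an siRNA leaves no residual degree of freedom for a count of calls. With 39 reads of PLAT and 27 of SERPINB2 with siRNA 1, depth limits both.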

Other observations

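A few relatives of the members outside the lists were chosen after their values were seen. PLGLB2, a plasminogen-like gene whose near-identical copy PLGLB1 makes its count uncertain, had 1.02 CPM with NONO siRNA 1, 1.75 CPM with NONO siRNA 2 and 0.867 CPM with control, from 30, 50 and 24 reads. PLGLB1 had 0.782, 0.734 and 0.795 CPM in the same libraries. ANXA2R, which makes a receptor of annexin A2, had 3.03, 3.95 and 2.89 CPM in the libraries of siRNA 1, siRNA 2 and control. The siRNA 2 library was the highest of the 3 for PLGLB2 and ANXA2R.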
